A study of Mus musculus with 6 samples.

Results

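The AP-1 family was followed in the hearts of mice with heat stroke (HS) and of sham mice through 9 genes: the Jun subunits Jun, Junb and Jund, the Fos subunits Fos, Fosb, Fosl1 and Fosl2, and the related basic leucine zipper genes Batf and Jdp2. They were chosen by name, as every row of the transcript table that carried one of these symbols, which gave 28 of 149132 transcripts and 9 of 57180 genes. All samples were hearts of male C57BL/6N mice, an inbred strain, aged 6 to 8 weeks and weighing 20 to 25 g, with no transgene or deletion named in the labels. HS mice (3 hearts) were heated at 40 °C in humid air (60 to 65%) to a core temperature of 42 °C and then recovered at 22 to 25 °C. Sham mice (3 hearts) stayed at 22 to 25 °C, and both groups were without food and water during the procedure. How long after reaching 42 °C the hearts were taken is not stated in the sources used here. The comparison of HS with sham hearts asks how transcript levels in the myocardium differ after heat stroke.

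AP-1 is a dimer of basic leucine zipper proteins that binds short DNA elements such as the TPA response element and the cyclic AMP response element (CRE). Jun proteins pair with each other or with Fos proteins, while Fos proteins need a partner such as Jun to bind DNA. Jun and Fos are immediate early genes that cells transcribe within minutes of stress or growth signals, and JNK, a stress-activated kinase, phosphorylates the c-Jun protein. In these hearts Jun, Fos and Fosb had the largest log2 fold changes among the tested members, but none passed an adjusted p of 0.05 in edgeR. They and Fosl2 had higher levels in every HS heart than in any sham heart, as did 9.06% of all genes tested. Fosb was tested only because of its HS counts. Jund, Junb and Jdp2 overlapped between the groups.

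To show the DNA in front of some of the members, the stretch before the RefSeq transcription start of Jun, Fos, Fosb and Junb is printed. Each runs 5′ to 3′ on the strand of the gene, from RefSeq on GRCm38.p6. The stretches lie at chr4:95052223-95052472 (minus strand, Jun), chr12:85473640-85473889 (plus strand, Fos), chr7:19310052-19310295 (minus strand, Fosb) and chr8:84978749-84978998 (minus strand, Junb), and 6 bases of the Fosb window that GENCODE vM21 places inside the gene were left off. Capitals mark matches to the motifs searched on both strands.
Jun: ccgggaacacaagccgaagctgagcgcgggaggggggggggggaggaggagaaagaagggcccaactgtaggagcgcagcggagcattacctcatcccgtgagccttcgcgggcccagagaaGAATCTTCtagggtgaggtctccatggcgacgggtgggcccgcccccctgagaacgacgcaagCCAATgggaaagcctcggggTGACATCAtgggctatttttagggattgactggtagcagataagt
Fos: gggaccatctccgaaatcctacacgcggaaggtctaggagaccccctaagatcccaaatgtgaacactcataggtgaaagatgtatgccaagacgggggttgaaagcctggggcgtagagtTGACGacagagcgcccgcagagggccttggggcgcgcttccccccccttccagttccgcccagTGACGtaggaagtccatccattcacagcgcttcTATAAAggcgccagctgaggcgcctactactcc
Fosb: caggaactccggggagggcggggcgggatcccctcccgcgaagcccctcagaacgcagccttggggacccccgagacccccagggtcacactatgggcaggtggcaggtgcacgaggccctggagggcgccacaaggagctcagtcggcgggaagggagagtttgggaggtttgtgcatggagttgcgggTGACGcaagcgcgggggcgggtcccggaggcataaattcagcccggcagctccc
Junb: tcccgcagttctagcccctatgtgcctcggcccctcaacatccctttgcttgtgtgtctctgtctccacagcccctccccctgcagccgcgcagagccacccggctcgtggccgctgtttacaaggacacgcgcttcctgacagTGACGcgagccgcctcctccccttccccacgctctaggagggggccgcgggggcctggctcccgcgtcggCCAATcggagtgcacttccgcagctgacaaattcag
The Jun stretch held TGACATCA, a variant of the AP-1 element, 45 bases before the start, CCAAT at 65 bases and the inverted repeat GAATCTTC at 128 bases, which matches GAANNTTC, the core of the heat shock element. Fos held the CRE half-site TGACG at 66 and at 129 bases before the start and a TATA box, TATAAA, at 33 bases. The same half-site stood 60 bases before the start of Fosb and 106 bases before that of Junb, where CCAAT also stood at 36 bases. Windows of 250 bases were found for 8 of the 9 members (10 windows), and of 32841 such windows 2.93% held TGACATCA, 6.7% GAANNTTC, 17.8% TGACG, 33.9% CCAAT and 12.4% TATAAA. The full elements TGACTCA and TGACGTCA, the second of which contains TGACG, and the CArG box were in none of the members' windows, against 4.46%, 1.55% and 1.47% of all windows. Fosl2 matched GAANNTTC at 244 bases, and the second of Jdp2's 3 windows matched TGACG at 114 bases. Both of these windows lie inside the gene as vM21 annotates it. Batf matched TGACG at 98 bases. The Jund window, ahead of a RefSeq start that lies upstream of the gene in vM21, had no match. These matches describe letters only and were not tested for binding, and bases beyond the 250 of each window were not searched.

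Libraries were of poly(A)-selected RNA and kept the strand. The deposited values are estimated counts for each transcript, which were summed per gene. Totals ran from 22098487 to 25855876 per HS heart and from 23368849 to 24222889 per sham heart, and levels below are counts per 1000000 of that total (CPM). At this depth 3 counts, the upper limit that a count of 0 allows, correspond to 0.116 to 0.136 CPM, a limit that covers counting error only. HS heart 3 stood apart: its mean absolute log2 difference from any other heart was 0.47 to 0.57, against 0.23 to 0.36 among the others. Mitochondrial ribosomal RNA took 2.75, 3.16 and 5.55% of counts in HS hearts 1 to 3, against 1.67 to 1.69% in sham hearts. Of the marker lists, the summed level of 7 atrial cardiomyocyte genes was 4122, 221 and 2494 CPM in HS hearts 1 to 3 and 169 to 188 CPM in sham hearts, with 1 of the 7 above every sham heart in all HS hearts. Fibroblast genes summed to 1219, 727 and 1517 CPM in HS hearts, against 616 to 757 CPM in sham hearts (3 of 8 above), and smooth muscle genes to 537, 206 and 443 CPM in HS hearts, against 126 to 160 CPM in sham hearts (1 of 4 above). The 7 ventricular cardiomyocyte genes, which check the labelled tissue, summed to 29651 to 42342 CPM in HS hearts and 37804 to 39434 CPM in sham hearts (3 of 7 below). Endothelial genes summed to 573 to 628 CPM in HS hearts and 500 to 627 CPM in sham hearts, and the 7 macrophage and leukocyte genes to 125 to 165 CPM in HS hearts, against 157 to 206 CPM in sham hearts (1 of 7 below). Lymphocyte and neutrophil genes stayed at or under 3.02 CPM in any heart, with Ly6g at 0 in all 6. Over all genes tested, 9.06% had every HS heart above every sham heart and 11.0% had the reverse. A count of 1 gene in lists of this size is therefore near the background. In bulk tissue, fewer cells of a type and less RNA per cell cannot be told apart. The part of these differences in the results that follow was not tested.

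Of the 9 members, 7 passed the filter on low counts, Fosb through the HS hearts, while Fosl1 and Batf did not. In edgeR's quasi-likelihood test with Benjamini-Hochberg adjustment over 14717 genes, 0 members passed an adjusted p of 0.05, against 0.0612% of all genes tested. At an unadjusted p under 0.05, Jun, Fos and Fosb were higher in HS hearts and 0 members were lower, while 8.83% of all genes were higher and 4.76% lower. Fosb entered the test only because of its HS counts, so its place among the 3 is a description, and it was not tested when at least 10 counts were required in every heart. DESeq2 called the same 3 higher at an adjusted p under 0.05, Fosb again as a description, against 1.86% of all genes higher. For 4 members (Jun, Fos, Fosb and Fosl2) the lowest HS heart was above the highest sham heart, and for 0 the reverse held, against 9.06% and 11.0% of genes. The labels number the biosamples but do not speak of litter, day or batch, so the p-values measure the spread between these hearts.

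**Figure D1:**
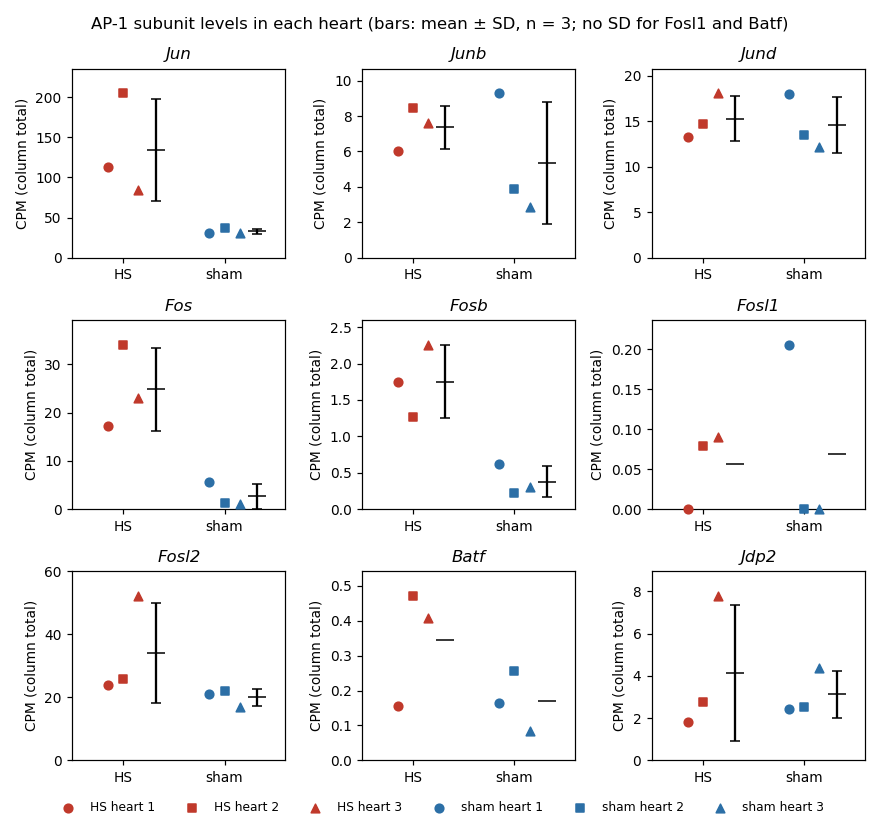
Level of each AP-1 member in CPM of the column total (linear axes from 0), with 1 point per heart, HS left of sham, and the mean with its SD (n = 3 hearts per group) beside the points; Fosl1 and Batf have the mean only. Jun, Fos, Fosb and Fosl2 had all 3 HS hearts above all 3 sham hearts, while the groups overlapped for the other 5.

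Jun (ENSMUSG00000052684) encodes c-Jun and is a gene without introns at chr4:95049034-95052222 on the minus strand. It stood at 113, 205 and 83.8 CPM in HS hearts 1 to 3, against 30.8, 36.6 and 31.0 CPM in sham hearts 1 to 3. The sham hearts lay close together, and the HS hearts were spread widely above them, heart 2 highest. The means were 134 ± 63.3 CPM in HS hearts and 32.8 ± 3.30 CPM in sham hearts (SD, n = 3 each), or 2.07 ± 0.31 as log2 fold change and its standard error (4.19-fold), with an unadjusted p of 3.0e-04 and an adjusted p of 0.135 in edgeR. By p, Jun ranked 32 among the 14717 genes. Without HS heart 2 the log2 fold change was lower, 1.62, but with an adjusted p of 0.00269 in edgeR. That fit called 287 genes in all, against 9 with every heart. Leaving out any other single heart gave an adjusted p from 0.123 (without HS heart 1) to 0.617 (without sham heart 2) in edgeR. With HS hearts 1 and 3 left out, those with high atrial genes, the log2 fold change of Jun was 2.68. In that fit 1 HS heart was assumed to vary like the sham hearts.

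Junb (ENSMUSG00000052837), a Jun subunit that can dampen c-Jun activity, lies at chr8:84974484-84978718 on the minus strand. It stood at 6.03, 8.44 and 7.60 CPM in HS hearts and 9.29, 3.89 and 2.86 CPM in sham hearts. Sham heart 1 was above every HS heart, and the other sham hearts were below every HS heart. Its log2 fold change was 0.53 (standard error 0.42, adjusted p = 0.585 in edgeR). Without sham heart 1 it was 1.16, with an unadjusted p of 0.00446 and an adjusted p of 0.622 in edgeR. The 3′ end of Junb overlaps Prdx2 on the other strand, which had 2568 to 3540 counts in HS hearts and 3570 to 3706 in sham hearts, and the sources used here do not say whether counting used the strand.

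Jund (ENSMUSG00000071076), the most evenly expressed Jun subunit in most tissues, lies at chr8:70698949-70700616 on the plus strand. Its level was 13.3, 14.7 and 18.1 CPM in HS hearts and 18.0, 13.5 and 12.2 CPM in sham hearts. The groups covered the same range, and the log2 fold change was 0.14 (standard error 0.21, adjusted p = 0.784 in edgeR). Without HS heart 3 its sign turned, to -0.08.

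Fos (ENSMUSG00000021250) encodes c-Fos, the classical partner of c-Jun, at chr12:85473890-85477273 on the plus strand. It had 444, 870 and 511 counts in HS hearts, against 136, 28 and 26 counts in sham hearts, which is 17.2, 34.1 and 23.1 CPM in HS hearts and 5.61, 1.20 and 1.11 CPM in sham hearts. Every HS heart was above every sham heart, and sham heart 1 was well above the other sham hearts. The log2 fold change was 3.29 (standard error 0.66, 9.80-fold), the largest among the members and larger than that of 99.7% of genes tested, with an unadjusted p of 0.002 and an adjusted p of 0.209 in edgeR. Without sham heart 1 it was 4.46 (adjusted p = 0.0941, edgeR).

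Fosb (ENSMUSG00000003545), another immediate early Fos subunit, lies at chr7:19302696-19310051 on the minus strand. It was far less abundant, with 45, 32 and 50 counts in HS hearts and 15, 5 and 7 counts in sham hearts, or 1.74, 1.26 and 2.26 CPM in HS hearts and 0.619, 0.214 and 0.298 CPM in sham hearts. The groups did not overlap, and sham heart 1 was again the highest sham heart. Its log2 fold change was 2.26 (standard error 0.46, 4.78-fold). No p is given here, since Fosb was kept for its HS counts.

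Fosl2 (ENSMUSG00000029135) encodes Fra-2, a Fos subunit usually induced more slowly than c-Fos, and lies at chr5:32135801-32157842 on the plus strand. It stood at 23.9, 25.9 and 52.2 CPM in HS hearts and 21.2, 21.9 and 17.0 CPM in sham hearts. HS hearts 1 and 2 were just above the sham hearts, and HS heart 3, the heart that stood apart, was far above them. HS hearts exceeded sham hearts by 0.85 on the log2 scale (standard error 0.36, unadjusted p = 0.0516, adjusted p = 0.367 in edgeR), and by 0.29 without HS heart 3.

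Fosl1 (ENSMUSG00000024912), which encodes Fra-1, lies at chr19:5447547-5455946 on the plus strand and was at the limit of detection. It had 0, 2 and 2 counts in HS hearts and 5, 0 and 0 counts in sham hearts. The ratio of pooled CPM, HS over sham, was 0.774 (95% exact interval of counting error 0.154 to 3.60), so no difference was detectable at this depth.

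Jdp2 (ENSMUSG00000034271), a Jun dimerization protein that represses AP-1 sites, lies at chr12:85599027-85639878 on the plus strand. It stood at 1.82, 2.75 and 7.78 CPM in HS hearts and 2.44, 2.52 and 4.39 CPM in sham hearts. HS heart 1 was below every sham heart, and HS heart 3 was above every sham heart. Its log2 fold change, 0.49 (standard error 0.61, adjusted p = 0.727 in edgeR), became -0.47 without HS heart 3. Batf (ENSMUSG00000034266, chr12:85686669-85709087, plus strand), a Jun partner known from lymphocytes that lacks an activation domain of its own, had 4, 12 and 9 counts in HS hearts and 4, 6 and 2 counts in sham hearts. Its pooled CPM ratio, HS over sham, was 2.02 (95% exact interval of counting error 0.976 to 4.40), and it was not tested further. The 3 genes Fos, Jdp2 and Batf follow each other on chromosome 12 as consecutive protein-coding genes, with 121754 bases between Fos and Jdp2 and 46791 bases between Jdp2 and Batf, yet HS heart 2 was the highest HS heart for Fos and HS heart 3 for Jdp2.

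**Figure D2:**
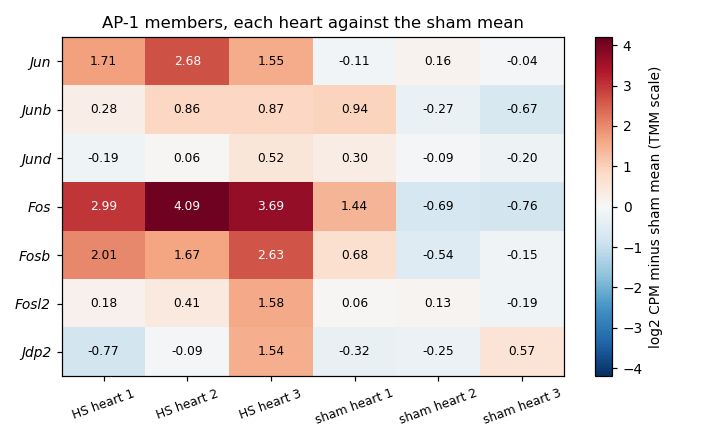
Log2 CPM of the 7 tested members in each heart minus the mean of the sham hearts (TMM scale, colour and printed value), HS hearts left of sham hearts. Jun, Fos and Fosb were at 1.55 to 4.09 in all HS hearts, Fosl2 and Jdp2 exceeded 1 in HS heart 3 alone, and sham heart 1 reached 1.44 for Fos.

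The members fell into different patterns over the HS hearts. Relative to the sham mean on the log2 scale, Jun was at 1.71, 2.68 and 1.55 in HS hearts 1 to 3 and Fos at 2.99, 4.09 and 3.69. Fosb, in contrast, had its highest value in HS heart 3, with 2.01, 1.67 and 2.63. Fosl2 (0.18, 0.41 and 1.58) and Jdp2 (-0.77, -0.09 and 1.54) were high in HS heart 3 alone. Among sham hearts, heart 1 was the highest for Fos (1.44), Junb (0.94), Fosb (0.68) and Jund (0.30), while Jun was at -0.11 there. The same sham heart was also highest for Egr1, with 22.7 CPM against 5.39 and 7.07 CPM in sham hearts 2 and 3.

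**Figure D3:**
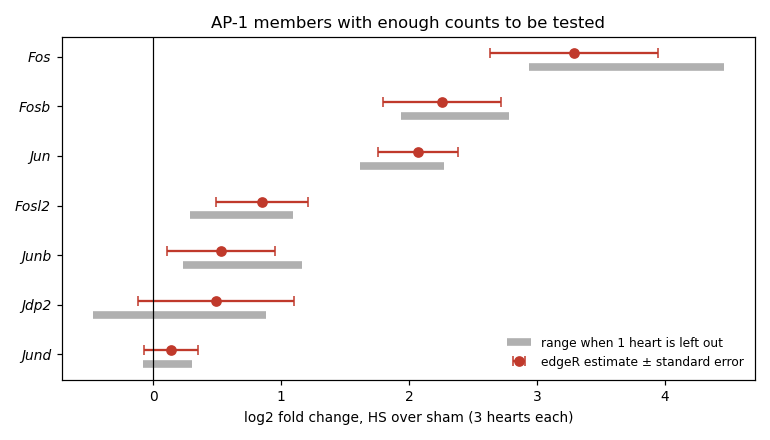
Log2 fold change of the 7 tested members, HS over sham (3 hearts each), with a standard error derived from edgeR's F statistic (red), and the range of the estimate when any 1 heart is left out (grey). The grey ranges of Fos, Fosb and Jun lie between 1.62 and 4.46, and those of Jdp2 and Jund cross 0.

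To compare members with each other, levels were divided by the length of the most counted protein-coding transcript. In HS hearts the order was Jun (42.0 ± 19.9 CPM per kilobase), Fos (11.8 ± 4.08), Jund (9.19 ± 1.48), Fosl2 (5.20 ± 2.42), Junb (4.07 ± 0.674), Jdp2 (2.64 ± 2.06) and Fosb (0.494 ± 0.142), all as mean and SD of 3 hearts. In sham hearts it was Jun (10.3 ± 1.04 CPM per kilobase), Jund (8.74 ± 1.84), Fosl2 (3.07 ± 0.400), Junb (2.96 ± 1.91), Jdp2 (2.00 ± 0.708), Fos (1.25 ± 1.22) and Fosb (0.106 ± 0.0603). Batf (0.360 ± 0.175 in HS hearts and 0.177 ± 0.0899 in sham hearts) was near Fosb, and Fosl1 was lowest in both groups. Fos thus stood sixth in sham hearts and second in HS hearts, although the ranges of Fos (8.15 to 16.2) and Jund (7.95 to 10.8) overlapped in HS hearts. In sham hearts the neighbours Jun and Jund overlapped, as did Fosl2 and Junb, Junb and Jdp2, and Jdp2 and Fos. In HS hearts Jund just overlapped with Fosl2, Fosl2 with Junb, and Junb with Jdp2.

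The AP-1 transcript pool as a whole was larger in HS hearts, at 177, 293 and 195 CPM over the 9 genes, against 88.4, 80.1 and 69.0 CPM in sham hearts. Its make-up was compared as the share of each member. Jun took 63.8, 70.0 and 42.9% of the AP-1 counts in HS hearts and 34.8, 45.7 and 45.0% in sham hearts. HS heart 3 fell within the sham range, and the difference of 17.1 percentage points gave p = 0.3 in a two-sided exact permutation test, in which 3 hearts against 3 cannot go below 0.1. Jund took 7.49, 5.01 and 9.24% in HS hearts and 20.4, 16.9 and 17.7% in sham hearts, a separation that goes with a near equal Jund level and a larger pool. Fos took 9.70, 11.7 and 11.8% in HS hearts and 6.35, 1.50 and 1.61% in sham hearts, and Junb 3.41, 2.88 and 3.89% in HS hearts and 10.5, 4.86 and 4.14% in sham hearts, both without overlap. These single shares were not tested and are not independent, since they sum to 100% in each heart.

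**Figure D4:**
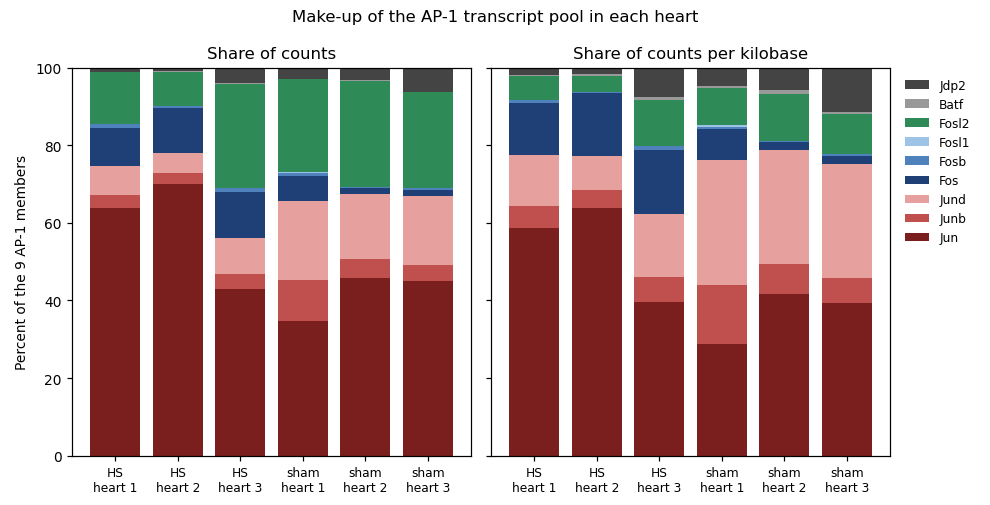
Share of the 9 AP-1 members in each heart (stacked bars, 3 HS hearts left of 3 sham hearts), in counts (left) and in counts per kilobase of transcript (right). Jund's share of counts was 5.01 to 9.24% in HS hearts and 16.9 to 20.4% in sham hearts, and Fos took 9.70 to 11.8% in HS hearts and 1.50 to 6.35% in sham hearts.

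Within the Fos subunits, the balance between c-Fos and Fra-2 transcripts differed between the groups. The ratio of Fos to Fosl2 counts was 0.720, 1.32 and 0.443 in HS hearts and 0.265, 0.0548 and 0.0650 in sham hearts. Together the 4 Fos subunits took 24.2, 21.0 and 39.8% of AP-1 counts in HS hearts and 31.3, 29.1 and 26.7% in sham hearts, a difference of -0.73 percentage points (p = 1, two-sided exact permutation test, smallest possible 0.1). The sign of that difference depended on the scale: per kilobase it was 8.18 points (p = 0.1, the smallest the exact test can give), a scale on which Fosl2, with a transcript of 6537 bases, weighs less. Per kilobase the Fos subunits took 20.4, 20.4 and 29.6% in HS hearts and 18.5, 14.4 and 13.0% in sham hearts. Within the Jun subunits the ratio of Jun to Jund counts was 8.52, 14.0 and 4.64 in HS hearts and 1.71, 2.71 and 2.55 in sham hearts. The Jun to Junb ratio, 18.7, 24.3 and 11.0 in HS hearts and 3.32, 9.41 and 10.9 in sham hearts, nearly met between HS heart 3 and sham heart 3.

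At the level of transcripts, 0 AP-1 transcripts passed an adjusted p of 0.05 in edgeR, against 0.0226% of 30933 tested. At an unadjusted p under 0.05 the higher ones among the 8 tested were the main Fos transcript, both Jun transcripts and Fosl2-202, while 5.73% of all transcripts were higher. Fosl2-202 passed the filter on low counts only through the HS hearts, so its being among them is a description. The table lists 2 Jun transcripts, ENSMUST00000107094 and ENSMUST00000249436, with identical values in all 6 hearts. Each held 50.0% of the gene's counts, so they cannot be told apart and are 1 measurement, with 2.06 as log2 fold change (standard error 0.32, adjusted p = 0.177). Fos-201, the coding transcript, held 97.2 to 98.6% of Fos counts in HS hearts and 80.7 to 100% in sham hearts, and its log2 fold change was 3.41 (standard error 0.69, adjusted p = 0.244). Fosl2-202, annotated as a retained intron, had 13.61, 15.78 and 21.62 estimated counts in HS hearts and 0, 2.08 and 3.14 in sham hearts. The groups did not overlap, and no test of this transcript is given, since it was kept for its HS counts. For the coding Fosl2-201 the log2 fold change was 0.81 (standard error 0.37, adjusted p = 0.555 in edgeR), and the difference between the transcripts was not tested. As a share of the gene's pooled counts, Fosl2-202 was 2.10% in HS hearts and 0.366% in sham hearts. The few Fosb counts were spread over 7 transcripts with a different leading one from heart to heart, such as Fosb-201 with 63.6% in HS heart 1 and Fosb-203 with 70.0% in HS heart 3, so Fosb can be read per gene only.

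Flanking genes were looked at for signal shared with the members. The nearest protein-coding genes of Jun, Mysm1 and Fggy, had 429, 361 and 383 counts and 63, 50 and 52 counts in HS hearts, against 416, 314 and 315 and 58, 49 and 51 in sham hearts. Junos, an antisense gene that overlaps Jun, had 7, 7 and 1 counts in HS hearts and 4, 2 and 5 counts in sham hearts, far below the counts of Jun. Tmed10, next to Fos on the other side from Jdp2, had 2056 to 2897 counts in HS hearts and 2510 to 2620 counts in sham hearts. Beside Fosb, Rtn2 had 612 to 930 counts in HS hearts and 768 to 858 in sham hearts, and Ercc1 had 194 to 202 in HS hearts and 165 to 212 in sham hearts. Fosl2 is flanked by Babam2, with 208 to 371 counts in HS hearts and 280 to 315 in sham hearts, and by Plb1, with 8 to 26 in HS hearts and 12 to 15 in sham hearts. For the remaining members the neighbours were Rnaseh2a and Hook2 (Junb), Lsm4 and Iqcn (Jund), AI837181 and Fibp (Fosl1) and Flvcr2 (Batf). Ccdc85b overlaps Fosl1 on the other strand, with 98 to 122 counts in HS hearts and 164 to 187 in sham hearts.

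Among the other basic leucine zipper genes that can pair with Jun or Fos, 8 of 10 were tested, 1 was higher in HS hearts at an unadjusted p under 0.05 and 0 were lower, with a median log2 fold change of 0.19 against 0.01 over all genes. With 8.83% of all genes higher and 4.76% lower at that threshold, 1 gene in a list of this size is near the background, for this list and for the kinases and promoter factors that follow, so the genes named from them are a description of single genes. The 1 here was Atf3, a stress-induced member of the ATF family, at 7.19, 14.9 and 22.7 CPM in HS hearts and 6.98, 4.75 and 3.41 CPM in sham hearts. HS heart 1 was barely above sham heart 1, and the log2 fold change of Atf3 was 1.66 (standard error 0.49, adjusted p = 0.288, edgeR). Of 15 kinases of the JNK, p38 and ERK branches, all tested, 0 were higher and 1 was lower, with a median of -0.05. That was Mapk11, which encodes p38 beta, at 0.928, 0.863 and 0.724 CPM in HS hearts and 1.61, 2.01 and 2.30 CPM in sham hearts (log2 fold change -1.19, standard error 0.27, adjusted p = 0.213, edgeR). Transcript levels do not measure phosphorylation, the step at which these kinases act. Of 11 factors known to act at the Fos and Jun promoters, 1 was higher and 0 were lower (median -0.01). It was Mrtfb, a coactivator of serum response factor, at 34.0, 29.9 and 36.7 CPM in HS hearts and 26.2, 23.0 and 24.0 CPM in sham hearts (log2 fold change 0.51, standard error 0.14, adjusted p = 0.264, edgeR).

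Genes widely described as AP-1 targets had log2 fold changes on both sides of 0. Of 20, 16 were tested, 0 were higher and 3 were lower at an unadjusted p under 0.05 in edgeR, against 8.83% of all genes higher and 4.76% lower, with a median log2 fold change of 0. Ccnd1, which encodes cyclin D1, was at 27.6, 39.4 and 25.7 CPM in HS hearts and 44.7, 47.9 and 48.8 CPM in sham hearts (log2 fold change -0.56, standard error 0.16, adjusted p = 0.28, edgeR). For Vegfa, an angiogenic growth factor, it was -0.38 (standard error 0.15) and for Tgfb1, a fibrogenic cytokine, -0.31 (standard error 0.13), with adjusted p of 0.345 and 0.367 in edgeR. The groups were apart for Ccnd1 and Tgfb1, and overlapped for Vegfa. Larger values that did not pass, chosen after their values were seen, lay on both sides of 0. Ccl2 had -1.27 (standard error 0.56). Positive ones were 1.36 (0.85) for the metallothionein gene Mt2 and 0.94 (0.49) for Mt1. The protease gene Mmp3 had 1.16 (0.55) and the protease inhibitor gene Timp1 1.12 (0.59). The groups overlapped for all of these, and each positive one was highest in HS heart 3, the heart that stood apart. Mt2 was at 5.61, 6.2 and 40.6 CPM in HS hearts 1 to 3 and 6.05 to 8.64 CPM in sham hearts. Mt1 was at 43.1, 54.1 and 133 CPM in HS hearts and 38.7 to 50.9 CPM in sham hearts. Il6, Tnf and Fasl had too few counts to be tested. Spp1 did not pass the filter on low counts either, with 6, 9 and 81 counts in HS hearts 1 to 3 and 9, 1 and 3 counts in sham hearts 1 to 3.

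Of 15 other early response genes, all tested, 6 were higher and 1 was lower at an unadjusted p under 0.05, against 8.83% of all genes higher and 4.76% lower, with a median log2 fold change of 0.32. The 1 lower gene is near the background share. Nr4a1, an orphan nuclear receptor, stood at 17.3, 13.3 and 28.1 CPM in HS hearts and 4.17, 4.71 and 3.24 CPM in sham hearts. Egr2, a zinc finger factor, stood at 2.09, 3.88 and 2.76 CPM in HS hearts and 0.950, 0.514 and 0.341 CPM in sham hearts. Both had no overlap between groups, and for Egr2, as for Jun and Fos, HS heart 2 was highest. Egr1 stood at 53.3, 109 and 48.5 CPM in HS hearts and 22.7, 5.39 and 7.07 CPM in sham hearts. The lower one was Ier3, an early response gene linked to cell survival, at 7.35, 8.91 and 8.42 CPM in HS hearts and 12.1, 14.3 and 13.3 CPM in sham hearts. Their log2 fold changes were 2.36 (standard error 0.35), 2.32 (0.43), 2.64 (0.61) and -0.63 (0.16) for Nr4a1, Egr2, Egr1 and Ier3. For Nr4a1, Egr1 and Ier3 the adjusted p ran from 0.129 to 0.254 in edgeR. Egr2, with 8 counts in sham heart 3, passed the filter on low counts only through the HS hearts. Its place among the 6 is therefore a description.

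Across the 6 hearts, the genes whose log2 CPM followed Jun most closely among 10945 compared were Rasgrf2 (Pearson r = 0.996), Mpzl1 (0.995), Arhgap25 (0.987), Phlda1 (0.986) and Dnajc13 (0.985). Those closest to Fos were Foxj2 (r = 0.990), Egr1 (0.988), Gse1 (0.979), Nfkbiz (0.978) and Or4f14b (0.977). The 6 points of each correlation share libraries and fall into groups, so the values are a description. In size the followers differed: Phlda1 had a log2 fold change of 2.10 and Egr1 of 2.64, while Mpzl1 had 0.13 and Foxj2 0.20. Phlda1 was at 1.75, 2.72 and 1.58 above the sham mean in HS hearts 1 to 3 on the log2 scale, close to Jun's own 1.71, 2.68 and 1.55.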

How the data were processed

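RNA from 6 mouse hearts, 3 HS and 3 sham, was sequenced from poly(A)-selected libraries. Reads were trimmed by the authors with fastp and mapped with Hisat2 (versions not given in the sources used here), on mm10 by the submitters' notes. The counting program is likewise not given in the sources used here. Its annotation holds a Jun transcript absent from GENCODE vM21. The submitters' extraction text speaks of cell lines, while their tissue label is heart. The deposited values are estimated counts per transcript, with no normalization for depth (30.3% not whole). They were summed per gene identifier and rounded to whole numbers. CPM levels are per column total. Tests used edgeR 4.0.16 in R 4.3.3 (filterByExpr with minimum count 10 and minimum total 15, TMM factors 0.891 (HS heart 3) to 1.07 (HS heart 1), robust quasi-likelihood, group only, Benjamini-Hochberg over all genes tested). Standard errors of log2 fold changes are the absolute log2 fold change divided by the square root of the quasi-likelihood F statistic. Log2 CPM per heart used a prior count of 2. Alternatives were DESeq2 1.42.0, other normalizations and filters, a replicate block, leaving out hearts and shares per kilobase. Figures were drawn in Python 3.11.15 with matplotlib 3.10.9.

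The members, gene lists and tests were chosen with earlier results of these data known. All 9 members are named, and of each other list up to 4 genes with the smallest unadjusted p under 0.05, together with the 5 closest followers of Jun and of Fos whose log2 CPM averaged at least 1, predicted genes left out, and the neighbouring genes. Lists were read as counts and medians, with no set test. Gene coordinates are GENCODE vM21 on GRCm38, and promoter windows are RefSeq on GRCm38.p6.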

Additional observations from a re-analysis of the deposited data

How the results depend on the processing

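Jun, Fos and Fosb stayed higher in HS hearts under every alternative in which they were tested. At an unadjusted p under 0.05, each alternative with at least 2 HS hearts gave 3 to 4 members as higher and 0 as lower. The share of all genes higher is known here for the main fit only, 8.83%. The members called changed: Fosl2 took the place of Fosb with at least 10 counts in every heart, and Junb was added without sham heart 1. The count of members at an adjusted p under 0.05, 0 in edgeR, was 3 with DESeq2 (Jun, Fos and Fosb, the last kept for its HS counts). It was 1 without a filter on low counts (Fosb), and ran from 0 to 1 when 1 heart was left out. Over all genes the count of 9 was 351 with DESeq2, 16 with library size only, 84 without a filter, 4 with at least 10 counts in every heart and 129 with HS hearts 1 and 3 left out, and ran from 2 to 287 when 1 heart was left out. Leaving out 1 heart, Jund ran from -0.08 (without HS heart 3) to 0.30 and Jdp2 from -0.47 (without HS heart 3) to 0.88, and Jdp2 had -0.15 with HS hearts 1 and 3 left out. The Fos subunit share difference of -0.73 points was 8.18 per kilobase and ran from -6.47 to 2.94 when 1 heart was left out, with 1.34 without HS heart 1, 2.94 without HS heart 2 and 0.40 without sham heart 1. Jun's share difference ran from 11.5 to 25.1 points. The cause of these changes was not tested. Deviations from the group mean correlated at -0.06, 0.13 and 0.01 between same-numbered hearts, which the labels do not describe as pairs. With 3 hearts per group these values cannot show whether such hearts shared a day or batch. With the replicate block 0 members and 9 genes passed, and Jun had 1.98 (adjusted p = 0.0547 in edgeR). Depth limits Fosl1, at or near the limit of 3 counts in every heart, and Batf, with at most 12 counts in a heart.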
